A study of Mus musculus with 6 samples.

Results

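The epicardium is the mesothelial sheet that covers the heart, and 9 genes used to recognise it or to follow its retinoic acid synthesis were examined in mouse hearts at stage E12.5, counted in days of embryonic development. They are Wt1, Tbx18, Tcf21, Upk3b, Upk1b, Krt19, Msln, Aldh1a1 and Aldh1a2. They were taken by gene symbol with no filter on their values, but the list was chosen with earlier results of these data known. All 9 were found among the 15118 genes of the deposited table. Total RNA was sequenced from 6 embryonic hearts of the Black-Swiss strain. The 3 Hif1a mutant hearts (mutants 5, 8 and 10) carried Cre in the Nkx2-5 gene (NKX2-5 Cre/WT) with a floxed and a null allele of Hif1a (Hif1a Null/flox). The 3 control hearts (controls 2, 5 and 9) carried the same NKX2-5 Cre/WT alleles with a floxed and a wild-type allele of Hif1a (Hif1a WT/flox). All 6 hearts thus carried Cre and a floxed allele, and the comparison asks which transcripts differ when the other Hif1a allele is null.

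HIF1A is the oxygen-regulated part of the transcription factor HIF1. Nkx2-5 is expressed in progenitors of the heart and in heart muscle, so Cre driven from it recombines there, and which epicardial cells it reached is not stated in the labels. A cell without Cre activity keeps both functional Hif1a alleles in a control heart and a single one in a mutant heart. Epicardial cells grow out from the proepicardium over the heart, some of them undergo an epithelial-to-mesenchymal transition, and their descendants include fibroblasts and mural cells. The epicardium makes retinoic acid, which retinaldehyde dehydrogenases form from retinaldehyde, and is a source of growth signals for the heart muscle beneath it.

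Levels are in RPKM, read numbers scaled to the length of the exons counted and to the size of the library, which allows levels of different genes to be compared per length. The spacing of low values implies 101500000 to 159100000 reads per library. With the full GENCODE exon length of each gene, the estimated counting error for the 9 genes lay between 0.703% and 4.47% of a value. The exons counted may be shorter, which would make the error larger. Hif1a itself measured 75.7, 55.0 and 77.7 RPKM in mutants 5, 8 and 10, against 61.1, 46.4 and 46.4 RPKM in controls 2, 5 and 9, so its transcript level was not lower in mutant hearts. The labels do not say which exons the altered alleles lack, and the value does not check the deletion. The chromosome Y gene Eif2s3y was near 0 in mutant 8 and control 9 and expressed in the other 4 hearts. The labels describe separate hearts and nothing on litters or batches, so the p-values reflect heart-to-heart spread.

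The defining markers of the epicardium were present in every heart. In order of the mean over 6 hearts, expression was 33.9 RPKM for Upk3b, 17.9 RPKM for Tcf21, 15.2 RPKM for Krt19, 13.4 RPKM for Aldh1a2, 9.33 RPKM for Tbx18, 6.95 RPKM for Upk1b, 5.91 RPKM for Wt1, 4.51 RPKM for Msln and 1.70 RPKM for Aldh1a1. Upk3b stood above Tcf21, and Tbx18 above Upk1b, with no overlap of the ranges in mutant or in control hearts. The ranges of Tcf21 and Krt19, of Krt19 and Aldh1a2 and of Upk1b and Wt1 overlapped in both genotypes. Within single hearts Tcf21 was above Krt19 in 6 of 6 hearts, Krt19 above Aldh1a2 in 5 and Upk1b above Wt1 in 5, so the last 2 pairs did not keep their order in every heart. The remaining neighbours overlapped in a single genotype, Msln and Aldh1a1 in mutant hearts, and Aldh1a2 and Tbx18 as well as Wt1 and Msln in control hearts.

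**Figure D1:**
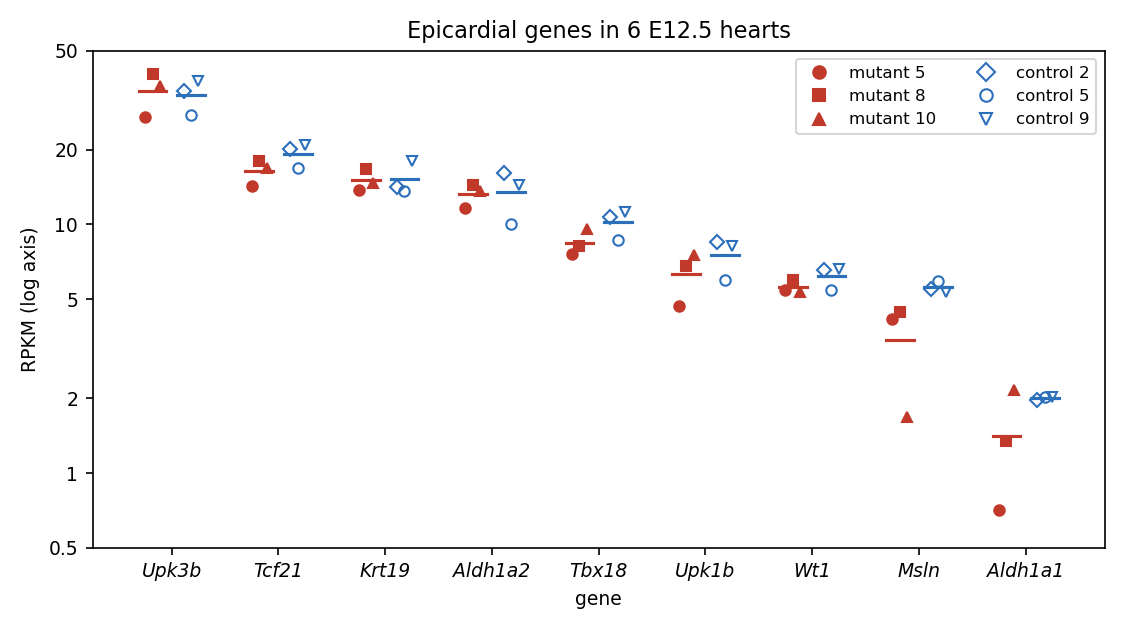
Level of each of the 9 genes in RPKM on a log axis, with filled red symbols for the 3 mutant hearts left of open blue symbols for the 3 control hearts and a line at each group's mean. Mutant and control hearts overlap for every gene but Msln, which lies between 1.68 and 4.45 RPKM in mutant hearts and between 5.36 and 5.90 RPKM in control hearts.

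None of the 9 genes differed between mutant and control hearts past an adjusted p of 0.05 in limma, and 1 of them, Msln, had an unadjusted p under 0.05. Over all 13080 genes tested 0.818% passed the adjusted threshold (0.42% higher and 0.398% lower in mutant hearts) and 11.2% had an unadjusted p under 0.05. The log2 change, mutant minus control on log2(RPKM + 1), was negative in 8 of the 9 genes, as it was in 57.4% of all genes tested. The median change of the 9 genes was −0.22 and that of all tested genes −0.03. Values of mutant and control hearts did not overlap in 1 of the 9 genes, Msln, which was lower in mutant hearts, against 9.43% of all tested genes lower without overlap. In whole hearts, fewer epicardial cells and less RNA per epicardial cell cannot be told apart.

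**Figure D2:**
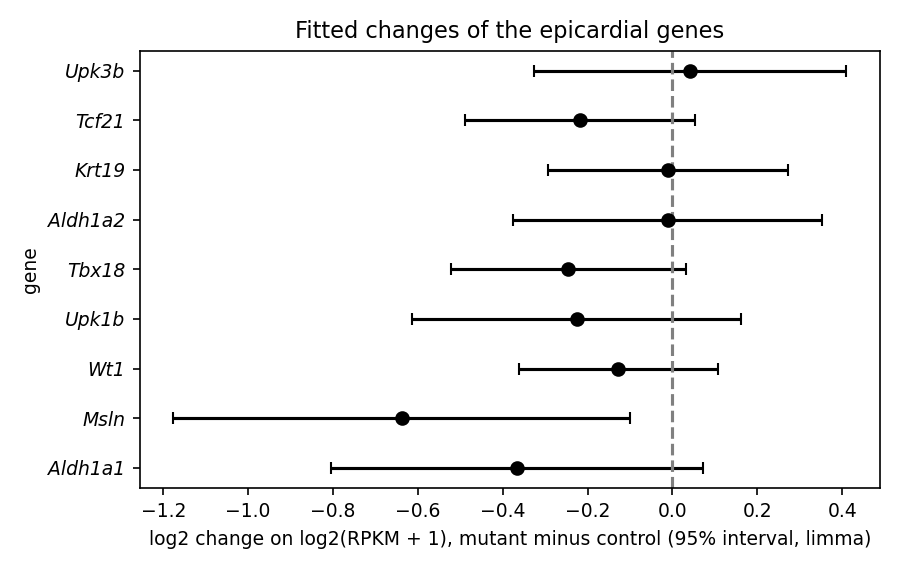
Fitted log2 change of each gene on log2(RPKM + 1), mutant minus control, with its 95% interval from limma. All intervals but that of Msln (−1.18 to −0.10) include 0, before any adjustment for the number of genes tested.

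Wt1 (ENSMUSG00000016458, mm10 chromosome 2, 105126529 to 105173616, plus strand) encodes a zinc finger transcription factor needed for epicardial development and epithelial-to-mesenchymal transition. It measured 5.47, 6.00 and 5.33 RPKM in mutants 5, 8 and 10, against 6.56, 5.47 and 6.63 RPKM in controls 2, 5 and 9. Controls 2 and 9 lay above all mutant hearts, and control 5 lay among the mutant hearts. Its log2 change came to −0.13 ± 0.10 (SE), with an interval of −0.36 to 0.11 and a limma adjusted p = 0.68. Its spread over hearts was the smallest of the 9 genes, with the highest heart 1.24 times the lowest. The exons counted for Wt1 include 5 identifiers of intronic positions, so part of its value may not come from spliced exons.

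Tbx18 (ENSMUSG00000032419, chromosome 9, 87702800 to 87731260, minus strand), a T-box transcription factor of the epicardium that also marks the sinus horns, measured 7.62, 8.16 and 9.55 RPKM in mutants 5, 8 and 10, against 10.7, 8.69 and 11.2 RPKM in controls 2, 5 and 9. Mutants 5 and 8 lay below every control heart, and mutant 10 lay above control 5. On the log2 scale the change was −0.25 ± 0.12 (SE, limma adjusted p = 0.50). Of its exon bases 970 are shared with D030062O11Rik on the opposite strand, and whether reads were counted by strand is not stated. The summed level of 5 sinus venosus markers (Shox2, Hcn4, Isl1, Tbx3 and Tbx5) was 12.0 to 14.2 RPKM in mutant hearts. It was 11.5 to 14.1 RPKM in control hearts. Shox2 and Isl1 were lower in mutant hearts without overlap, against 9.43% of all tested genes, and the other markers overlapped. Shox2 lay between 0.272 and 0.762 RPKM in mutant and between 0.938 and 1.32 RPKM in control hearts. Isl1 lay between 0.273 and 0.526 RPKM in mutant and between 0.562 and 0.807 RPKM in control hearts. Both were too low to enter the limma test. The part of the 5 markers in the Tbx18 values was not tested.

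Tcf21 (ENSMUSG00000045680, chromosome 10, 22817281 to 22820174, minus strand) encodes a basic helix-loop-helix factor required for cardiac fibroblasts to form from epicardial cells. It had 14.3, 18.1 and 16.9 RPKM in mutants 5, 8 and 10, against 20.2, 16.8 and 20.8 RPKM in controls 2, 5 and 9. As with Wt1, controls 2 and 9 were higher than the mutant hearts while control 5 lay among them. Tcf21 had a log2 change of −0.22 ± 0.12 (SE, limma adjusted p = 0.54). Tbx18 and Tcf21 had the most similar profiles of any pair among the 9 genes, with a root mean square difference of 0.09 log2 units over the 6 hearts after centring each gene on its mean.

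Upk3b (ENSMUSG00000042985, chromosome 5, 136038496 to 136046487, plus strand) and Upk1b (ENSMUSG00000049436, chromosome 16, 38773184 to 38800328, minus strand) encode uroplakins, membrane proteins first known from the bladder lining that mesothelial cells also express. Upk3b measured 27.0, 40.4 and 36.1 RPKM in mutants 5, 8 and 10, against 34.5, 27.7 and 37.7 RPKM in controls 2, 5 and 9, and mutant hearts held both its highest and its lowest value. Its log2 change of 0.04 ± 0.16 (SE, limma adjusted p = 0.94) was the only positive one, and it was negative in 5 of 16 alternative settings, rescaling without haemoglobin genes among them. Upk1b measured 4.72, 6.79 and 7.53 RPKM in mutants 5, 8 and 10, against 8.46, 6.00 and 8.17 RPKM in controls 2, 5 and 9. Mutants 8 and 10 lay between control 5 and the other controls, and mutant 5 lay below all of them. The log2 change of Upk1b was −0.23 ± 0.17 (SE, limma adjusted p = 0.66). As for Wt1, the positions counted for Upk1b include intronic ones, 2 in number.

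Krt19 (ENSMUSG00000020911, chromosome 11, 100140810 to 100148665, minus strand) encodes an intermediate filament protein of simple epithelia and mesothelium. It measured 13.8, 16.7 and 14.7 RPKM in mutants 5, 8 and 10, against 14.1, 13.6 and 18.04 RPKM in controls 2, 5 and 9, and the mutant hearts lay within the range of the controls. Its log2 change was −0.01 ± 0.12 (SE, interval −0.29 to 0.27, limma adjusted p = 0.98). The sign was positive in 5 of 16 alternative settings, which were median centring and settings that left out hearts.

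Msln (ENSMUSG00000063011, chromosome 17, 25748613 to 25754378, minus strand) encodes mesothelin, a surface glycoprotein of mesothelial cells. It measured 4.17, 4.45 and 1.68 RPKM in mutants 5, 8 and 10, against 5.48, 5.90 and 5.36 RPKM in controls 2, 5 and 9. Every mutant heart lay below every control heart, and mutant 10 lay far below the other mutants. The means were 3.43 ± 1.53 RPKM in mutant and 5.58 ± 0.282 RPKM in control hearts (SD, n = 3 each). The log2 change was −0.64 ± 0.24 (SE, limma unadjusted p = 0.025, adjusted p = 0.36). Without mutant 10 it was −0.31 ± 0.11 (SE, limma unadjusted p = 0.024, adjusted p = 0.53). The limma unadjusted p was 0.054 without control 2 and 0.068 without control 5.

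The profile of Msln stood apart from those of the other 8 genes. Its root mean square difference from them was 0.41 (Wt1) to 0.58 (Aldh1a1) log2 units, against 0.34 or less for every pair that does not include it. Macrophage markers were also lowest in mutant 10. Summed over 7 of 8 listed genes (Mrc1, Cx3cr1, Csf1r, Fcer1g, Cd68, C1qa and C1qb) they measured 21.2, 18.1 and 8.32 RPKM in mutants 5, 8 and 10, against 25.5, 30.2 and 31.1 RPKM in controls 2, 5 and 9. Of these, 5 of 7 were lower without overlap (9.43% of all tested genes) and none was at 0. Adgre1 was not found by symbol among the 15118 genes. The part of macrophages in the Msln values was not tested.

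Aldh1a2 and Aldh1a1 encode enzymes that oxidise retinaldehyde to retinoic acid. Aldh1a2, also called Raldh2, is the main embryonic form and is expressed in epicardium. The sequences before their start sites are shown for both enzymes because HIF1 can bind DNA at ACGTG, a form of its core. That of Upk3b is shown as the most abundant of the 9 genes. Each is the 250 bases before the RefSeq transcription start (GRCm38.p6, the assembly of mm10), 5′ to 3′ on the gene's strand, with matches of searched motifs in capitals.
Aldh1a2 (chr9:71215539-71215788, plus strand): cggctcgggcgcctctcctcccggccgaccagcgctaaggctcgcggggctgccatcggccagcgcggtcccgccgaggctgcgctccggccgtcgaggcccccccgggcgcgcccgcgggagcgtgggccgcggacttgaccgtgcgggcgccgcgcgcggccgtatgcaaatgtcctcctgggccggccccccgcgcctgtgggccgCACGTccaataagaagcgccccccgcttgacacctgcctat
Aldh1a1 (chr19:20492333-20492582, plus strand): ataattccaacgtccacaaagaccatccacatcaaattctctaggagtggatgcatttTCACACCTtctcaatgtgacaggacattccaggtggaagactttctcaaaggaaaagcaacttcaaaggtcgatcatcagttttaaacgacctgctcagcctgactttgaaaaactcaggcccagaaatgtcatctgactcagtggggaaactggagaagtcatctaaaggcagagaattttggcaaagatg
Upk3b (chr5:136038246-136038495, plus strand): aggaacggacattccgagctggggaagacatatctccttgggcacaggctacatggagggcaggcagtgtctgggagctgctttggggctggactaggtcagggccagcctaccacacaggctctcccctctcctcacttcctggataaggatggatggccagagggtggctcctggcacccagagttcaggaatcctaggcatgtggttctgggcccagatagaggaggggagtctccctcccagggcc

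RefSeq windows were matched for 5 of the 9 genes (Aldh1a1 with 2 starts, Aldh1a2, Tbx18, Tcf21 and Upk3b), and 4 motifs were searched on both strands, with no overlap among the matches found. The form ACGTG of the HIF1 core occurred in the Aldh1a2 window, read on the minus strand as CACGT, 41 to 37 bases before the start. It occurred in none of the other windows of these genes. The same form was found in 16.6% of 32851 such windows of all genes, and other forms of the core were not searched. The T-box half-site AGGTGTGA occurred in the first Aldh1a1 window, 192 to 185 bases before the start on the minus strand, and in 1.12% of all windows. That start is 132 bases from the GENCODE start of the gene. The second Aldh1a1 start, at base 20601968, is 109253 bases from it, and its window held no match. Which start these hearts use was not tested. The motifs GCGTGGGAG and GCGGGGGCG, bound by WT1 and by the related EGR1, occurred in none of these windows, against 0.405% and 2.57% of all windows. A match describes these letters and is not evidence of binding. The windows of the retinaldehyde dehydrogenases differ in composition, with 77.6% G or C before Aldh1a2. Before the first and second starts of Aldh1a1 it was 42.8% and 46.4%.

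Aldh1a2 (ENSMUSG00000013584, chromosome 9, 71215789 to 71296243, plus strand) measured 11.6, 14.5 and 13.6 RPKM in mutants 5, 8 and 10, against 16.1, 10.1 and 14.4 RPKM in controls 2, 5 and 9. The control hearts held both its highest and its lowest value, and the mutant hearts lay close to the middle. The log2 change was −0.01 ± 0.16 (SE, interval −0.38 to 0.35, limma adjusted p = 0.98), and the sign was positive after median centring.

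Aldh1a1 (ENSMUSG00000053279, chromosome 19, 20492715 to 20643465, plus strand) measured 0.708, 1.34 and 2.17 RPKM in mutants 5, 8 and 10, against 1.97, 2.03 and 2.02 RPKM in controls 2, 5 and 9. The control hearts were nearly alike, mutants 5 and 8 were below them and mutant 10 above them. The SD was 0.731 RPKM in mutant and 0.0331 RPKM in control hearts. The reads behind these values, estimated from the library sizes and the full GENCODE exon length, ran from 500 in mutant 5 to 1701 in mutant 10. They would be fewer if the exons counted are shorter. The log2 change was −0.37 ± 0.19 (SE, limma adjusted p = 0.53). It was −0.14 without mutant 5 (limma adjusted p = 0.67) and −0.59 without mutant 10 (limma adjusted p = 0.29).

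Within each heart Aldh1a2 was the prevailing enzyme transcript. Aldh1a1 reached 6.08%, 9.25% and 16.0% of the Aldh1a2 RPKM in mutants 5, 8 and 10, against 12.2%, 20.1% and 14.0% in controls 2, 5 and 9. The mutant hearts rank in the same order as for Aldh1a1 itself, and the genotypes overlap. On the log2 scale the ratio averaged −3.37 ± 0.70 in mutant and −2.73 ± 0.37 in control hearts (SD, n = 3 each; two-sided exact permutation test p = 0.3). Set against Wt1, Aldh1a2 was 2.13, 2.41 and 2.55 times as abundant in mutants 5, 8 and 10 and 2.45, 1.84 and 2.17 times in controls 2, 5 and 9 (two-sided exact permutation test p = 0.5, n = 3 each). With 3 hearts against 3 this test cannot give a p below 0.1.

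**Figure D3:**
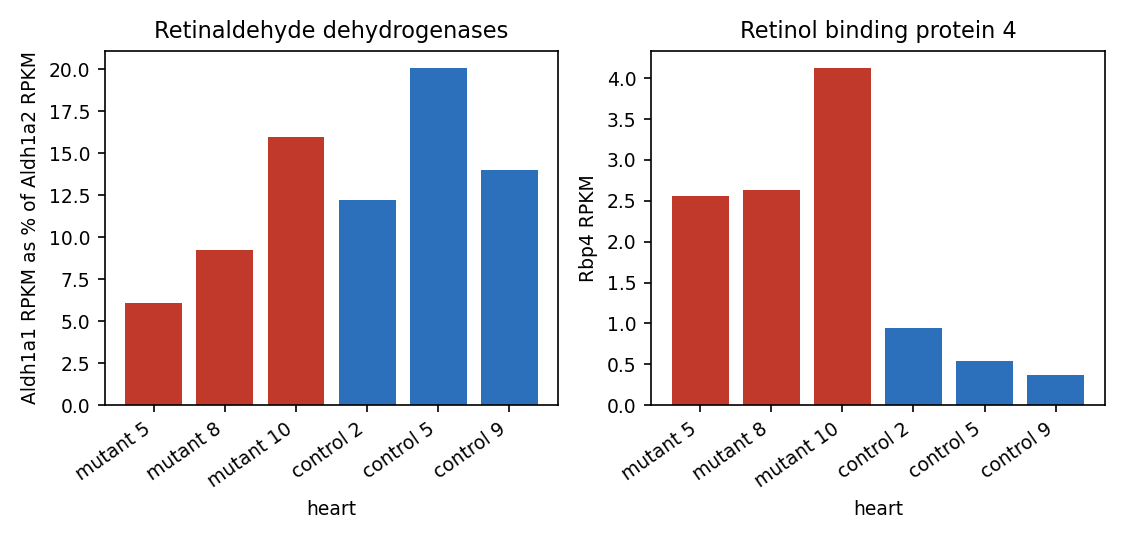
Left, Aldh1a1 RPKM as a percentage of Aldh1a2 RPKM in each heart, and right, Rbp4 RPKM in each heart, with mutant hearts in red left of control hearts in blue. The percentages overlap between genotypes, while Rbp4 is at 2.56 RPKM or more in mutant hearts and at 0.945 RPKM or less in control hearts.

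Differences between hearts of the same genotype ran through most of the 9 genes. Mutant 5 had the lowest value of the mutant hearts in 7 of 9 genes, with Wt1 and Msln lowest in mutant 10, and was below the gene's mean over 6 hearts in all 9. Control 5 had the lowest value of the control hearts in 7 of 9 genes, the exceptions being Msln (lowest in control 9) and Aldh1a1 (lowest in control 2). Control 9 was above the gene's mean in all 9 genes and control 2 in 8. The median deviation from the gene's mean on the log2(RPKM + 1) scale was −0.25, 0.02 and 0.03 in mutants 5, 8 and 10, against 0.18, −0.09 and 0.22 in controls 2, 5 and 9. Control 5 thus lay among the mutant hearts. Without it the median change of the 9 genes was −0.31, and without mutant 5 it was −0.11.

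**Figure D4:**
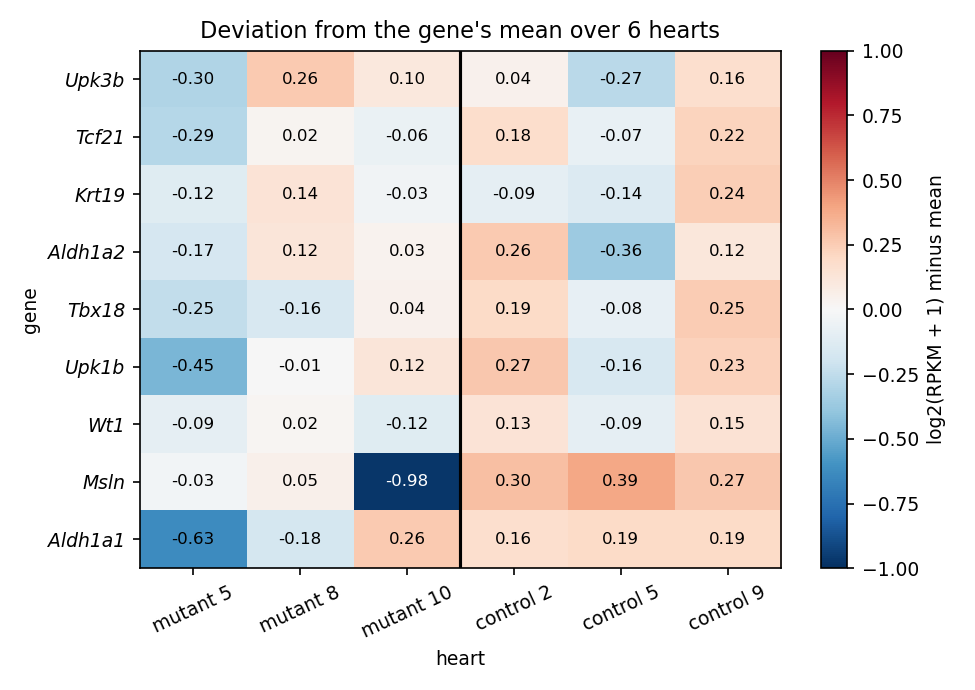
Deviation of log2(RPKM + 1) from each gene's mean over the 6 hearts, with genes in order of mean level and mutant hearts left of the black line. The column of mutant 5 is below 0 throughout, that of control 9 is above 0 throughout, and Msln in mutant 10 (−0.98) is the lowest value.

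Markers of other tissues were examined beside these differences. Summed over 10 heart muscle genes, expression was 16832, 18260 and 17710 RPKM in mutants 5, 8 and 10, against 16013, 16600 and 17703 RPKM in controls 2, 5 and 9. Among mutants, mutant 5 was lowest and mutant 8 highest, the order also of Upk3b, Tcf21, Krt19 and Aldh1a2, and among controls, control 2 was lowest and control 9 highest. Summed over 4 erythroid genes, expression was 4576, 8347 and 4541 RPKM in mutants 5, 8 and 10, against 6661, 5410 and 6219 RPKM in controls 2, 5 and 9, with control 5 the lowest control as in most of the epicardial genes. Summed over 10 endothelial and endocardial genes it was 129 to 149 RPKM in mutant and 136 to 156 RPKM in control hearts, with 3 of 10 lower without overlap, against 9.43% of all tested genes. Higher in mutant hearts without overlap were 2 of the 10 heart muscle genes and 1 of the 4 erythroid genes, against 7.6% of all tested genes. No gene of these 2 lists was lower without overlap. Smooth muscle markers summed to 351 to 475 RPKM in mutant and 347 to 372 RPKM in control hearts. Of 8 liver markers 3 (Afp, Ttr and Apoa2) were measured, with a sum of 2.48 to 4.24 RPKM in mutant and 2.08 to 5.69 RPKM in control hearts. The others, Alb and Hnf4a among them, were not found by symbol among the 15118 genes. The lung marker Sftpb measured 4.80 to 5.71 RPKM in mutant and 5.08 to 9.13 RPKM in control hearts, and Nkx2-1 and Sftpc were likewise not found. The part of these cell types and of tissue dissected with the heart in the epicardial values was not tested.

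Genes with the profile closest to the mean of the 9 were Slit3, Aif1l, Ly6e, Stom and Gm13442, with root mean square differences of 0.03, 0.05, 0.05, 0.05 and 0.07 log2 units over the 6 hearts among 9197 candidates. Slit3, a secreted guidance ligand of Robo receptors, lay between 3.32 RPKM (mutant 5) and 4.41 RPKM (mutant 8) in mutant hearts, against 4.25 RPKM (control 5) to 5.13 RPKM (control 9) in control hearts. Closest to Wt1 alone were Stom, Rrm2 and 0610040F04Rik (0.03, 0.04 and 0.04), and closest to Aldh1a2 were Mrap, Pbdc1 and Lrrn4 (0.09, 0.09 and 0.10). Lrrn4, a leucine-rich repeat protein used as a mesothelial marker, measured 3.97, 5.36 and 4.79 RPKM in mutants 5, 8 and 10, against 5.29, 4.08 and 5.11 RPKM in controls 2, 5 and 9. With 6 hearts and this many candidates, close profiles are a description of these libraries.

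Other epicardial and mesothelial genes also gave no call. Of 17 tested, none passed the adjusted threshold in limma, and 6 had an unadjusted p under 0.05, against 11.2% of all tested genes. The median log2 change was −0.05. Muc16, the mucin that binds mesothelin, measured 1.04, 0.320 and 1.19 RPKM in mutants 5, 8 and 10, against 2.11, 1.89 and 1.83 RPKM in controls 2, 5 and 9 (log2 change −0.70, limma adjusted p = 0.16). Its lowest heart was mutant 8, whereas that of Msln was mutant 10. The keratin gene Krt18 measured 13.4, 18.7 and 13.8 RPKM in mutants 5, 8 and 10, against 9.13, 9.96 and 12.1 RPKM in controls 2, 5 and 9 (log2 change 0.51, limma adjusted p = 0.22). Integrin subunit alpha 4, by which epicardial cells adhere to the heart surface, is encoded by Itga4, which averaged 1.69 RPKM in mutant and 2.45 RPKM in control hearts (limma adjusted p = 0.25). The heparan sulfatase gene Sulf1 averaged 9.00 RPKM in mutant and 10.97 RPKM in control hearts (limma adjusted p = 0.32). Values did not overlap in 5 genes lower and 2 genes higher in mutant hearts, against 9.43% and 7.6% of all tested genes.

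Genes of epicardium-derived mesenchyme had a median log2 change of −0.19 over 19 tested members, 16 of them negative, against 57.4% of all tested genes. None passed in limma and 7 had an unadjusted p under 0.05, against 11.2% of all tested genes. Col1a2, Col1a1 and Snai2 were lower in mutant hearts without overlap, against 9.43% of all tested genes. The collagen gene Col1a2 measured 45.5, 60.7 and 33.7 RPKM in mutants 5, 8 and 10, against 73.7, 84.2 and 87.4 RPKM in controls 2, 5 and 9 (log2 change −0.83 ± 0.19 SE, limma adjusted p = 0.11). The groups did not overlap, and mutant 10 was the lowest heart. Col1a2 passed the threshold in 3 of 16 alternative settings. They were without mutant 8 (limma adjusted p = 0.020), without control 2 and mutant 8 together (0.020) and after rescaling without haemoglobin genes (0.046). Mutant 8 held the highest mutant value of Col1a2 and control 2 the lowest control value, so leaving them out widens the gap. Col1a1 averaged 84.4 RPKM in mutant and 118 RPKM in control hearts (limma adjusted p = 0.29, and 0.045 without mutant 8). The proteoglycan gene Dcn averaged 21.7 and 31.0 RPKM and the matrix gene Postn 34.6 and 51.3 RPKM in mutant and control hearts (limma adjusted p = 0.33 and 0.34).

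Among genes of retinoid synthesis, transport and breakdown 1 of 8 tested rose and none fell, against 0.42% and 0.398% of all tested genes. Rbp4, the carrier of retinol in blood plasma, measured 2.56, 2.64 and 4.13 RPKM in mutants 5, 8 and 10, against 0.945, 0.539 and 0.366 RPKM in controls 2, 5 and 9 (log2 change 1.34 ± 0.18 SE, limma adjusted p = 0.011). All mutant hearts were above all control hearts. Its entry into the test rested on the mutant hearts, as the control hearts lay below 1 RPKM, and without control 5 the limma adjusted p = 0.069. Rdh10, which makes the retinaldehyde that ALDH1A2 uses, averaged 1.14 and 1.43 RPKM in mutant and control hearts (limma adjusted p = 0.62), and Adh5 44.2 and 41.1 RPKM (limma adjusted p = 0.70). The median log2 change of the 8 genes was −0.12.

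Retinoic acid receptors and response genes gave no call among 13 tested, with a median log2 change of −0.03. In limma 1 of them had an unadjusted p under 0.05, against 11.2% of all tested genes. Values did not overlap in 2 of them lower and 1 higher in mutant hearts, against 9.43% and 7.6% of all tested genes. The transglutaminase gene Tgm2, which retinoic acid induces in several cell types, averaged 75.2 RPKM in mutant and 61.2 RPKM in control hearts (log2 change 0.30, limma adjusted p = 0.36). The nuclear receptor cofactor Nrip1 averaged 1.24 and 1.47 RPKM, the homeobox gene Meis2 7.15 and 7.89 RPKM and the receptor gene Rxrg 2.81 and 3.07 RPKM in mutant and control hearts (limma adjusted p = 0.62, 0.64 and 0.75). Of 22 tested genes listed for epicardial and myocardial growth signals, which include receptors and transcription factors, none passed in limma. The median log2 change was −0.09, and 16 were negative, against 57.4% of all tested genes. Values did not overlap in 5 genes lower in mutant hearts, Pdgfb, Tmsb4x and Cxcl12 among them, and in 0 higher, against 9.43% and 7.6% of all tested genes. An unadjusted p under 0.05 was found for 3 of the 22, against 11.2% of all tested genes. The platelet-derived growth factor genes Pdgfb and Pdgfa had log2 changes of opposite sign, −0.47 for Pdgfb (1.14 RPKM in mutant and 1.96 RPKM in control hearts, limma adjusted p = 0.19) and 0.27 for Pdgfa (9.68 RPKM in mutant and 7.87 RPKM in control hearts, limma adjusted p = 0.40). Thymosin beta 4, an actin-binding peptide made from Tmsb4x, averaged 824 RPKM in mutant and 1043 RPKM in control hearts (limma adjusted p = 0.33), and the chemokine gene Cxcl12 12.6 and 14.6 RPKM (limma adjusted p = 0.49).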

How the data were processed

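Total RNA of 6 hearts was sequenced, and the submitters' processing notes name Trim Galore, TopHat2 and the build mm10, with no versions. The authors deposited 1 table of RPKM on a linear scale, in which each heart has a column and no unit is named. The unit was checked on single-exon genes, in which value times exon length came within 0.1 of a whole multiple of a per-library step in 86.1% to 91.0% of low values (medians of 19.3% to 19.8% with other steps). The steps give the reads behind each library, and those behind a gene were estimated from its full GENCODE exon length. The length of the exons counted was not used. The counter and its strand setting are not stated. By its values the table is limited to genes with a geometric mean of 0.5 RPKM or more in a genotype. No value of the 9 genes is repeated within a genotype, as happens in 6 genes.

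From these values limma 3.58.1 in R 4.3.3 was fitted on log2(RPKM + 1), with a mean-variance trend, all 6 hearts and no covariates, for genes that reach 1 RPKM in 3 or more libraries, which all 9 genes passed. The pseudocount of 1 understates changes of low genes. P-values are two-sided with Benjamini-Hochberg adjustment over 13080 genes, and the fit was tested on simulated data. The members and lists were chosen with earlier results of these data known. Named genes are the 9, Hif1a, up to 4 genes of each list with the smallest p (1 of the retinoid list is not reported here), and the nearest profiles (mean log2 of at least 2). The sinus venosus and macrophage markers, Lrrn4 among the nearest profiles and Eif2s3y are named as checks. Coordinates come from GENCODE M21 (mm10) and promoter sequences from RefSeq (GRCm38.p6). Alternatives were other pseudocounts, filters, scalings and limma options, leaving out each heart, and 2 subsets of 4 hearts. Python 3.11.15 and matplotlib 3.10.9 were used.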

Additional observations from a re-analysis of the deposited data

How the results depend on the processing

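Over 16 alternative settings none of the 9 genes passed the adjusted threshold in any of 143 values, and the lowest limma adjusted p was 0.20 (Msln without mutant 5). At an unadjusted p under 0.05 at most 3 of them passed in a setting (Tbx18, Aldh1a1 and Msln, without mutant 10). Msln, Wt1, Tbx18, Tcf21, Upk1b and Aldh1a1 stayed negative in every setting that tested them, while Upk3b, Aldh1a2 and Krt19 changed sign in 5 settings each. Their median change was −0.31 to −0.11 with 1 heart left out. All genes past the threshold numbered 107, against 54 in the 4 hearts with chromosome Y expression and 45 to 198 with 1 heart left out. They were 55 higher and 52 lower, against 54 and 81 after rescaling without haemoglobin genes, 57 and 34 after median centring, 65 and 78 with a robust prior, 29 and 16 without control 5 and 28 and 18 without mutant 10. Calls in the mesenchyme list were 0, against 1 after rescaling without haemoglobin genes, 1 without control 2 and mutant 8, and 0 to 2 with 1 heart left out. Calls in the retinoid list were 1, against 0 with a minimum of 5 RPKM, which leaves Rbp4 untested, and 0 to 1 with 1 heart left out. The other lists had none in any setting. The log2 ratio of Aldh1a1 to Aldh1a2, mutant minus control, was −0.65 and ran from −1.01 to −0.31 with 1 heart left out, and that of Aldh1a2 to Wt1 was 0.14 and ran from 0.03 to 0.24. Of 329 values of other named genes 323 kept their side of the threshold. Hif1a passed without control 2 and mutant 8 (limma adjusted p = 0.013). These were its highest control heart and its lowest mutant heart, so leaving them out widens the gap. Causes were not tested. No paired analysis was possible because the genotypes share a single sample number. The interval of a change of these genes is 0.24 to 0.54 log2 units to either side, which limits what 3 hearts a group can show.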
